A study of Drosophila melanogaster with 3 samples.

Results

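The Enhancer of split complex, E(spl), of Drosophila melanogaster carries 7 genes for basic helix-loop-helix (bHLH) proteins, and binding of the CG3838 protein across those genes is described here. They were taken from the Ensembl gene set by name, as every bHLH gene of the complex on chromosome arm 3R, and make up 7 of 13968 protein-coding genes. From left to right on the arm they are E(spl)mdelta-HLH, E(spl)mgamma-HLH, E(spl)mbeta-HLH, E(spl)m3-HLH, E(spl)m5-HLH, E(spl)m7-HLH and E(spl)m8-HLH. No binding value entered that rule, but the genes were chosen with earlier results of these data known.

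The binding data are from chromatin immunoprecipitation and sequencing (ChIP-seq) in a stable transgenic line that expresses CG3838 fused at its C-terminus to green fluorescent protein (GFP). CG3838 is the gene now named brwl. Chromatin came from whole embryos of both sexes, pooled and aged 0 to 24 h, was sonicated to 200 to 800 bp, and was precipitated with an antibody that the description calls anti-GFP and the antibody field calls CG3838. There was 1 group of 3 biological replicates, all carrying the fusion. Neither embryos without the fusion nor chromatin accessibility were analysed here, so signal from open chromatin or from the antibody cannot be told apart from binding of CG3838. In pooled whole embryos, a site bound in few cells or stages and a site bound weakly in many cannot be told apart either.

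These genes are among the best known targets of the Notch pathway in flies. When Notch is activated by a ligand on a neighbouring cell, its intracellular domain enters the nucleus and joins the DNA-binding protein Su(H), which binds upstream of E(spl) genes and switches them on. The E(spl) bHLH proteins then repress proneural genes, together with the co-repressor Groucho, and so stop neighbours of a neural precursor from taking the same fate. They bind DNA words known as E boxes and N boxes. The complex also holds genes of the Bearded family (E(spl)malpha-BFM, E(spl)m2-BFM, E(spl)m4-BFM and E(spl)m6-BFM), whose small products act on the ubiquitin ligase Neuralized, and the protease-inhibitor-like gene Kaz-m1. The gene gro, which encodes Groucho, lies at its right end.

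Of the 7 genes, E(spl)mdelta-HLH, E(spl)m3-HLH and E(spl)m7-HLH had a CG3838 peak at the promoter, and its summit stood well upstream of the transcription start site (TSS) at each. The sequences under those summits are shown first because they are rich in A and T, and so that they can be set beside the other promoters. They hold none of the Su(H) cores, E boxes or N boxes searched for, words that most summit windows of the genome lack too. Each line gives 201 bases of the dm6 assembly around the summit, read 5′ to 3′ on the strand of the gene, and the lack of capitals marks the lack of a match.
E(spl)mdelta-HLH, chr3R:25997154-25997354, forward strand: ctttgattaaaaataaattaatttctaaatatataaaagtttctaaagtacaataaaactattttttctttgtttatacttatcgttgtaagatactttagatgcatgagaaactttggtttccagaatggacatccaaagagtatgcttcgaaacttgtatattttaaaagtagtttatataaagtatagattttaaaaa
E(spl)m3-HLH, chr3R:26021403-26021603, forward strand: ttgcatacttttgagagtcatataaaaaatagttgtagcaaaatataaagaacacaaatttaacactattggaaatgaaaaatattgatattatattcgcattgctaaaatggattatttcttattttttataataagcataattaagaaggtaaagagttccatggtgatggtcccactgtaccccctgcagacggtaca
E(spl)m7-HLH, chr3R:26036571-26036771, forward strand: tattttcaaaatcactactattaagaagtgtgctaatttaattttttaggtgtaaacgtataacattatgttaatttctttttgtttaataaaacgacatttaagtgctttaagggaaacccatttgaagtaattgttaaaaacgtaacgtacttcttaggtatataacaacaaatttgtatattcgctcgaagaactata

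Windows of the same length, centred at -360 bp from the TSS, are given for the genes without a promoter peak in the thresholded list. Capitals mark Su(H) cores (GTGGGAA or GTGAGAA, or TTCCCAC when the site is on the other strand) and the E box CAGCTG. E(spl)mgamma-HLH, E(spl)mbeta-HLH and E(spl)m5-HLH have Su(H) cores in this window, whereas E(spl)m8-HLH has an E box here and its nearest cores lie closer to the TSS, at -223 and -199 bp.
E(spl)mgamma-HLH, chr3R:25999391-25999591, forward strand: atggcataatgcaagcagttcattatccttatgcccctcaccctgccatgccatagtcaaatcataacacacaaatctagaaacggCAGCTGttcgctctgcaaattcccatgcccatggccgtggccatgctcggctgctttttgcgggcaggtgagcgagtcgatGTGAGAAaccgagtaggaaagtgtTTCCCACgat
E(spl)mbeta-HLH, chr3R:26006283-26006483, reverse strand: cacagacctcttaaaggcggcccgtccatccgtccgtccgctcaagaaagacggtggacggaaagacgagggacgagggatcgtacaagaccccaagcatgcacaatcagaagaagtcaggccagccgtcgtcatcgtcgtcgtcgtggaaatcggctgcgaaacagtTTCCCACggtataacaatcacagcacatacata
E(spl)m5-HLH, chr3R:26029995-26030195, reverse strand: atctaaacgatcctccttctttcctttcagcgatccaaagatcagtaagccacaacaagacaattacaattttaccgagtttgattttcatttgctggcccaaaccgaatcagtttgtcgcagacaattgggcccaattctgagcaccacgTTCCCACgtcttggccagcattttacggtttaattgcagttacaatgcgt
E(spl)m8-HLH, chr3R:26039780-26039980, forward strand: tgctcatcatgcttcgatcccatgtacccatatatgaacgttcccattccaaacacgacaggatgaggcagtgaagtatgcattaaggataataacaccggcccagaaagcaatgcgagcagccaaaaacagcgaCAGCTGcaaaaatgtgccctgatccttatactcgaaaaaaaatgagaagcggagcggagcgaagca

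The authors deposited a list of regions for each replicate, a list from the pooled replicates, and a thresholded list of 2239 regions that passed their filter on agreement between replicates. The thresholded regions are the 2239 strongest of the 15592 pooled ones. A peak is a region of the thresholded list, and a promoter peak is one whose summit lies within 500 bp of a TSS of the gene. The signal is the value given by the authors to each region. It ranged from 103.5 to 1796 in the thresholded list, with a median of 148.5. The strongest peak of all was at the tagged gene brwl itself. Scales differ between lists, so signals of a replicate are also given relative to its 2239th strongest region, whose signal was 31.23 in replicate 1, 41.67 in replicate 2 and 37.09 in replicate 3. A relative signal of 1 is the weakest that still belongs to the strongest 2239 regions of a replicate. Read counts are not in these lists, so depth is unknown, no interval from counts is given and no test was run on the 7 genes.

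Promoter peaks were found at 3 of the 7 genes in the thresholded list (42.9%), beside 11.6% of all protein-coding genes. In the replicates' own lists, among the strongest 2239 regions, replicate 1 had 2 of the 7 genes (10.8% of all genes), replicate 2 had 3 (10.8%) and replicate 3 had 3 (12.3%). The genes were the same 3 each time, except that E(spl)m7-HLH was missing from replicate 1. With 7 genes, each one moves the share by more than the whole background share, so the count is a description of these genes.

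E(spl)mdelta-HLH (FBgn0002734, 3R from 25997621 to 25998633, forward strand, 1013 bp) is the leftmost gene and is known for its activity in the R4 photoreceptor of the eye. Its peak had its summit at 25997254, at -367 bp from the TSS, with a signal of 131.4 and rank 1399 of 2239. The replicate regions at this site had signals of 41.11, 42.89 and 42.8 in replicates 1, 2 and 3. All 3 replicates thus had it among their strongest 2239 regions, and relative signals were 1.32, 1.03 and 1.15 (mean 1.17 ± 0.144, SD, n = 3). Replicate 2 stood only just inside, at rank 2126. Summits fell at -376, -377 and -373 bp, which is the tightest placement of the 3 genes with a promoter peak. This promoter is shared: the gene CG43116 is transcribed away from E(spl)mdelta-HLH, with its TSS 625 bp off, and the summit is nearer to the TSS of CG43116. The peak therefore cannot be told apart as belonging to one gene or the other.

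E(spl)m3-HLH (FBgn0002609, 3R from 26021823 to 26023127, forward strand, 1305 bp) is the longest of the 7 and had the strongest promoter peak among them. Its summit at 26021503 lay at -320 bp, with a signal of 169.7 and rank 835. Signals were 38.62 in replicate 1, 66.25 in replicate 2 and 77.66 in replicate 3, at ranks 1411, 899 and 447. Relative signals were 1.24, 1.59 and 2.09 (mean 1.64 ± 0.431, SD, n = 3), so all replicates were above the cut and replicate 1 was the lowest. Replicate 2 resolved the site into a pair of summits, at -450 bp (66.25) and -251 bp (38.36), while the summits of replicates 1 and 3 lay between them, at -296 and -293 bp. The non-coding gene lncRNA:CR43644 is transcribed away from E(spl)m3-HLH, its TSS being 747 bp off, and the same summit lies within 500 bp of both. The stronger summit of replicate 2 is nearer to the TSS of lncRNA:CR43644, at -297 bp. This peak too cannot be told apart as belonging to one gene or the other.

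E(spl)m7-HLH (FBgn0002633, 3R from 26037038 to 26038019, forward strand, 982 bp) is active with its neighbours in proneural clusters, the groups of cells from which a neural precursor is chosen. Its peak, with a summit at 26036671 and thus also at -367 bp, had a signal of 130.9 and rank 1412. Signals were 65.68 at -349 bp in replicate 2 and 49.18 at -400 bp in replicate 3, with relative signals of 1.58 and 1.33. In replicate 1 the region overlapping the peak was much weaker, with a signal of 18.15, rank 9213 and relative signal 0.581, and its summit at -517 bp was outside the promoter window. The mean of the 3 relative signals was 1.16 ± 0.518 (SD, n = 3), so this peak rests on replicates 2 and 3. A weaker summit stood closer to the TSS in the pooled list, at -163 bp with a signal of 51.6. No divergent gene starts within 1000 bp, so E(spl)m7-HLH is the gene of the 3 whose promoter peak is not shared with another.

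The means of the 3 genes with a promoter peak, in the order m3, mdelta and m7, were 1.64, 1.17 and 1.16, and the replicate values of neighbours in that order overlap.

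**Figure D1:**
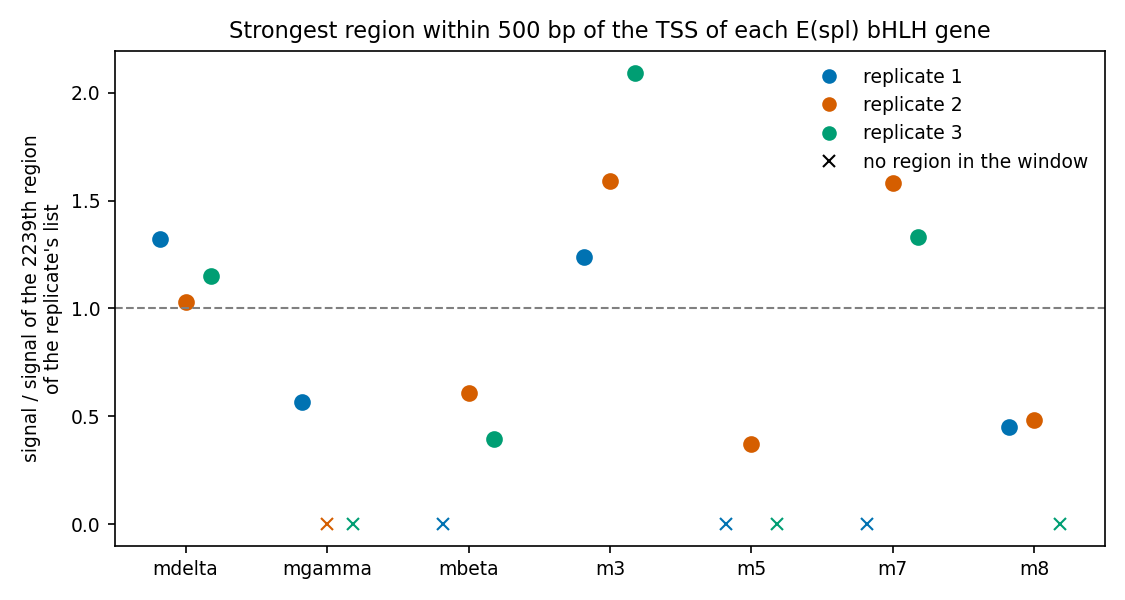
Signal of the strongest region within 500 bp of the TSS of each E(spl) bHLH gene (x axis, in genomic order) in each replicate, divided by the signal of that replicate's 2239th region (y axis, no unit); crosses mark replicates with no region in the window and the dashed line is 1. E(spl)mdelta-HLH and E(spl)m3-HLH are above the line in all 3 replicates, E(spl)m7-HLH in replicates 2 and 3, and the other genes in none, their highest value being 0.609.

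The other 4 genes had no promoter peak in the thresholded list, and what the replicate lists held there was weak. E(spl)mbeta-HLH (FBgn0002733, 3R from 26005046 to 26006023, reverse strand), known for its broad activity in the developing wing, came closest. It had a pooled region at -386 bp with a signal of 49.41 and rank 9473. Replicate 2 had a region at the same base (25.39, relative signal 0.609) and replicate 3 one at -405 bp (14.68, relative signal 0.396), while replicate 1 had none nearer than -929 bp. The nearest thresholded summit was at -3095 bp.

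E(spl)mgamma-HLH (FBgn0002735, 3R from 25999851 to 26000761, forward strand), which is active in neural stem cells, had a single region in the window. That region was in replicate 1, at 390 bp inside the gene, with a signal of 17.64 and relative signal 0.565. E(spl)m5-HLH (FBgn0002631, 3R from 26028854 to 26029735, reverse strand) likewise had a single one, in replicate 2 at 473 bp, with a signal of 15.44 and relative signal 0.371. Neither gene had a pooled region in the window, and the nearest thresholded summits were at -2597 bp for E(spl)mgamma-HLH and -6936 bp for E(spl)m5-HLH, the farthest of the 7.

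E(spl)m8-HLH (FBgn0000591, 3R from 26040240 to 26041008, forward strand), the gene altered in the dominant allele that gave the complex its name, had regions in replicate 1 (-219 bp, 14.1, relative signal 0.452) and replicate 2 (-449 bp, 20.11, relative signal 0.483). Replicate 3 had none in the window, and neither did the pooled list. The nearest thresholded summit, at 1445 bp, lies beyond the gene at the start of gro.

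Regions of any strength are common at fly promoters in these lists, and such weak regions must be read against that. A pooled region of any strength lay at 4 of the 7 promoters, beside 38.3% of all genes. For any region of a replicate, the counts were 4 of 7 in replicate 1 (42.6% of all genes), 6 in replicate 2 (49.1%) and 4 in replicate 3 (43.9%). The counts of replicates 1 and 3 are near their background. The weak regions at E(spl)mgamma-HLH, E(spl)m5-HLH and E(spl)m8-HLH were each found in 1 or 2 replicates and not in the pooled list.

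**Figure D2:**
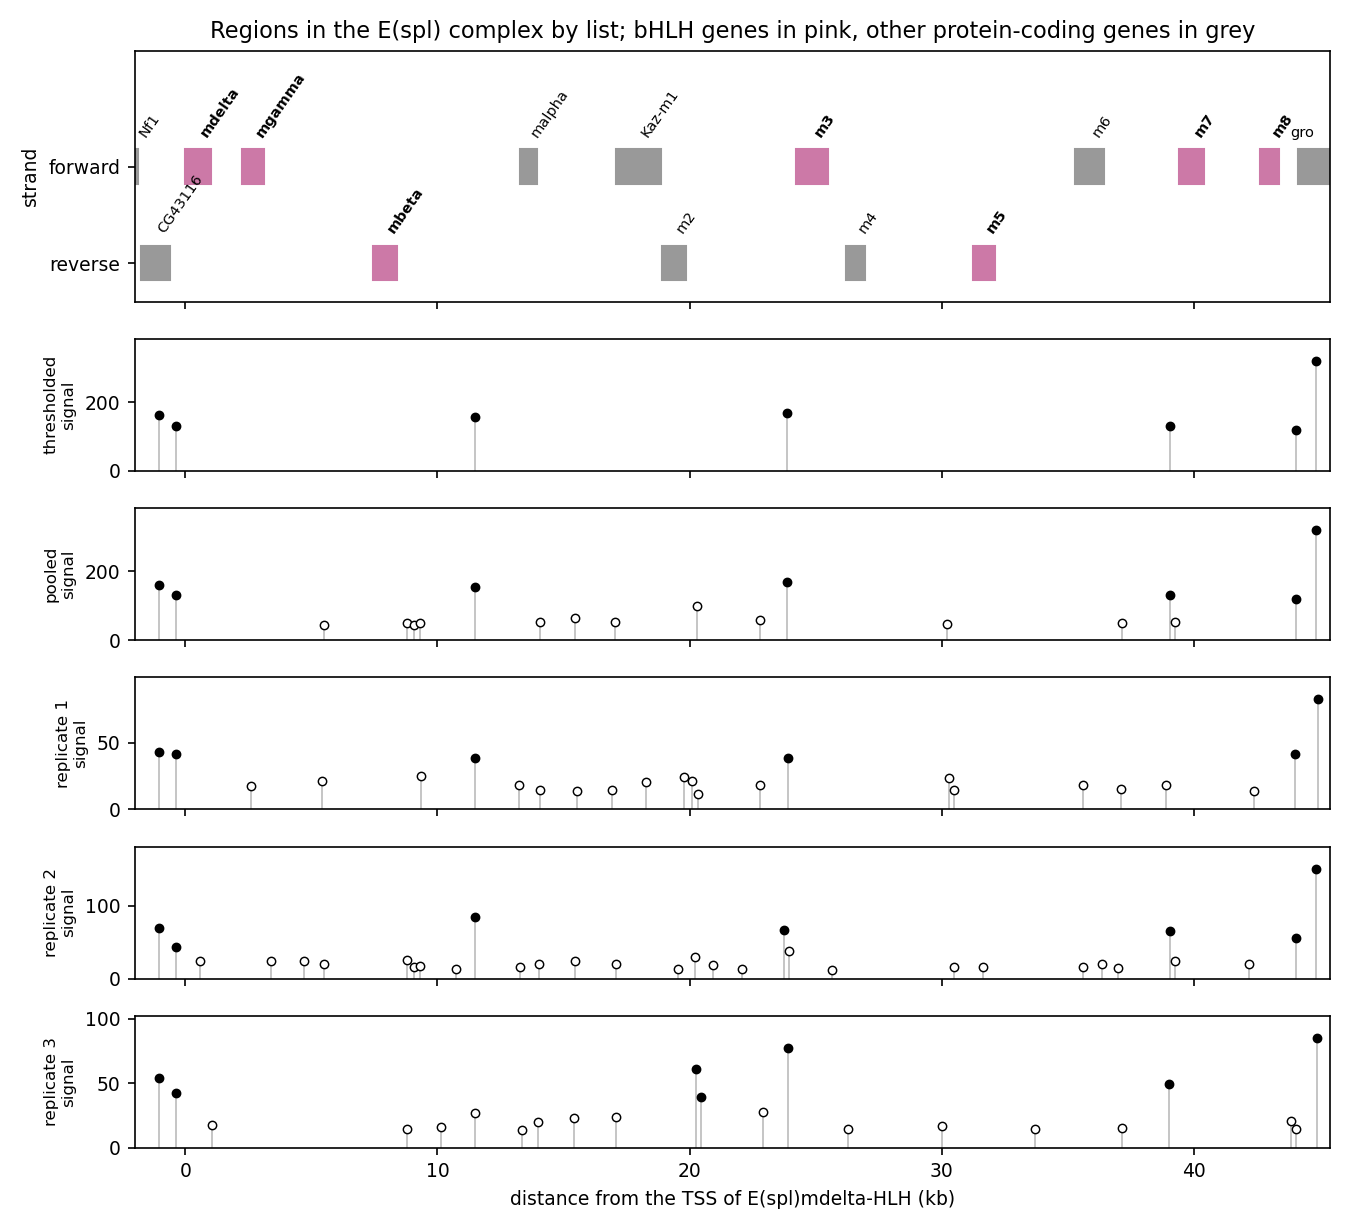
Signal (y axis, authors' scale of each list) of every region of the thresholded, pooled and replicate lists against the distance of its summit from the TSS of E(spl)mdelta-HLH (x axis, kb), below a map of protein-coding genes by strand; filled points are among the strongest 2239 regions of their list. The bHLH genes in pink are interleaved with the Bearded-family genes in grey. Filled points stand at both ends and near E(spl)m3-HLH in each list. They also stand near E(spl)m7-HLH, except in replicate 1, and between E(spl)mbeta-HLH and E(spl)malpha-BFM, except in replicate 3. Replicate 3 also has filled points upstream of E(spl)m2-BFM. None in the thresholded list lies between E(spl)m3-HLH and the promoter of E(spl)m7-HLH.

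Across the whole complex, taken as the outer ends of the 7 genes extended by 2 kb on each side (3R from 25995621 to 26043008, 47.4 kb), the thresholded list held 7 peaks. That is 14.8 per 100 kb, beside 1.71 per 100 kb over the arm. When the rest of 3R was laid out in 674 consecutive stretches of the same length, the median stretch held 0 peaks and 1 stretch held as many or more, with 8. Replicate 1 had 24 regions in the complex (50.6 per 100 kb beside 23.5 on the arm), replicate 2 had 32 (67.5 beside 22.8) and replicate 3 had 22 (46.4 beside 15.7). Density was thus higher in the complex than on the arm in each of these lists. By stretches of 3R the complex stood apart less in some lists, since as many or more regions were held by 8 of the 674 stretches in the pooled list, 16 in replicate 1, 1 in replicate 2 and 14 in replicate 3. The median signal of the 7 peaks was 155.6, close to the median of the list. Without replicate 2, 4 of the 7 peaks overlapped the strongest 2239 regions of both remaining replicates. Only 3 of the 7 lie in the 43.4 kb between the outer ends of the bHLH genes without the extension. The others sit at the flanking genes CG43116 and gro, or just outside E(spl)mdelta-HLH. Density and stretches were counted with the extension only, and the stretches were not matched for gene density.

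The strongest peak of the complex was in an intron of gro, which encodes the co-repressor shared by the E(spl) proteins. Its summit at 26042473 lay at -168 bp from an internal TSS of gro, with a signal of 320.5 and rank 200. Signals were 82.39, 150.8 and 85.18 in replicates 1, 2 and 3, with relative signals of 2.64, 3.62 and 2.3 (mean 2.85 ± 0.687, SD, n = 3). By relative signal, each replicate of this peak was higher than every replicate of the promoter peaks of the 3 bHLH genes. A second peak of gro, at -51 bp from its first TSS, was weaker (119.6), and its relative signals of 1.34, 1.34 and 0.555 put replicate 3 below the cut.

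At the left end, a peak in an intron of CG43116 (summit 25996587, signal 161.9) lay beside the E(spl)mdelta-HLH promoter peak and was above the cut in each replicate, with relative signals of 1.39, 1.67 and 1.46. The remaining peak was intergenic, with its summit at 26009118 between E(spl)mbeta-HLH and E(spl)malpha-BFM. It lay at -3095 bp from E(spl)mbeta-HLH and -1775 bp from E(spl)malpha-BFM, with a signal of 155.6. Its signals were 38.38, 85.07 and 27.14 in replicates 1, 2 and 3, with relative signals of 1.23, 2.04 and 0.732 (mean 1.33 ± 0.661, SD, n = 3).

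Of the 7 peaks, 4 overlapped the strongest 2239 regions of all 3 replicates (57.1%), and the other 3 those of 2 replicates. Over all thresholded peaks the share in all 3 was 54.6%, so the peaks of the complex were found again about as often as others. The peaks at E(spl)mdelta-HLH, E(spl)m3-HLH, CG43116 and the intron of gro are the 4.

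**Figure D3:**
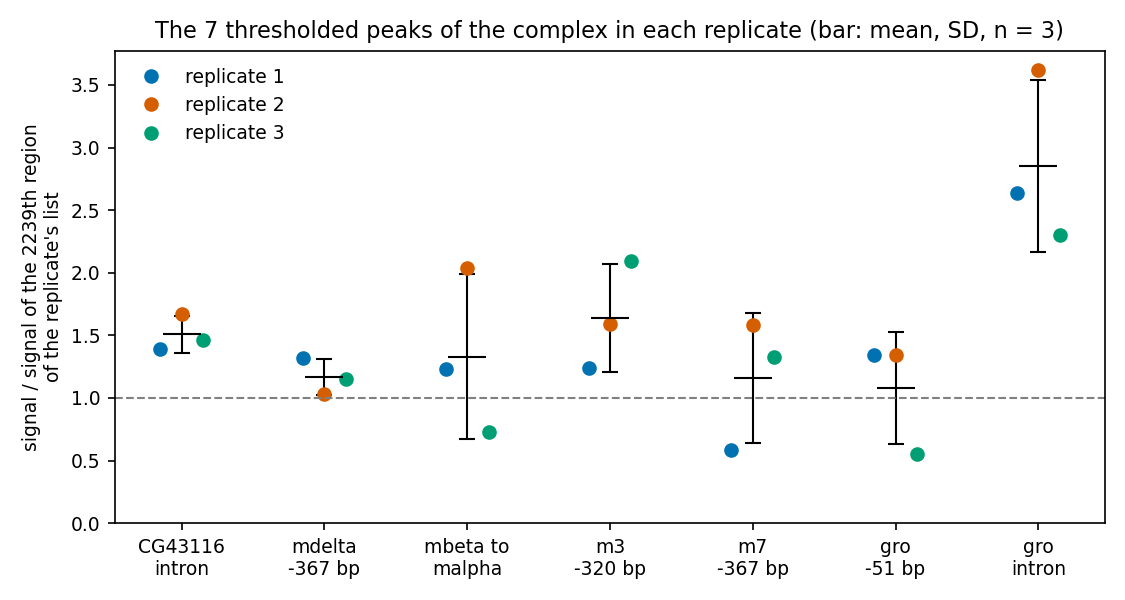
Relative signal (y axis, region signal divided by the signal of the 2239th region of that replicate's list) of the 7 thresholded peaks of the complex in genomic order (x axis); points are replicates, bars the mean and SD of 3, and the dashed line is 1. The gro intron peak is highest, between 2.3 and 3.62, and the intergenic peak, the E(spl)m7-HLH peak and the first gro peak each have 1 replicate below the line.

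Among the Bearded-family genes and Kaz-m1, none had a thresholded promoter peak. E(spl)m2-BFM came nearest, with a pooled region at -445 bp whose signal of 98.71 was just under the lowest thresholded signal of 103.5. It was among the strongest 2239 regions in replicate 3, with a signal of 61.14 at -404 bp. A further region of replicate 3, with a signal of 39.17, had its summit at -608 bp, outside the promoter window. Kaz-m1 had a pooled region of 53.82. E(spl)m4-BFM had no region in its promoter window in any list, and E(spl)malpha-BFM and E(spl)m6-BFM had them only in replicate lists. At the left border Nf1, whose end reaches into the extended complex, had no pooled promoter region. Beyond the right border Exo84, next to gro, had one of 74.04, the value also given for its neighbour Vps2.

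The summits lay at -367, -320 and -367 bp from the TSS of E(spl)mdelta-HLH, E(spl)m3-HLH and E(spl)m7-HLH. Measured from the nearest TSS of any gene, they lay at -258 bp, from CG43116, and at -320 and -367 bp. Over the 1272 thresholded summits within 500 bp of their nearest TSS of any gene, the median position was -102 bp, the quartiles were -187 and -19.75 bp, and 129 (10.1%) lay 300 bp or more upstream. On this measure all 3 summits were upstream of the lower quartile, and those of E(spl)m3-HLH and E(spl)m7-HLH were among the 129. A further count was by gene, each from its own TSS, with a rule chosen after the values were seen. By it, 3 of the 7 bHLH genes had a peak between 250 and 500 bp upstream of a TSS. They are the 3 genes with a promoter peak, so this repeats that count. Over all protein-coding genes the share was 3.19%, which also reflects whether a gene has a promoter peak at all. Among the 1625 genes with a promoter peak, 446 had one in this range. In the single replicates the strongest summits of the 3 E(spl) promoters with a peak lay between -293 and -450 bp, apart from the region of replicate 1 at E(spl)m7-HLH. With the promoter window narrowed to 250 bp, 0 of the 7 genes had a promoter peak.

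**Figure D4:**
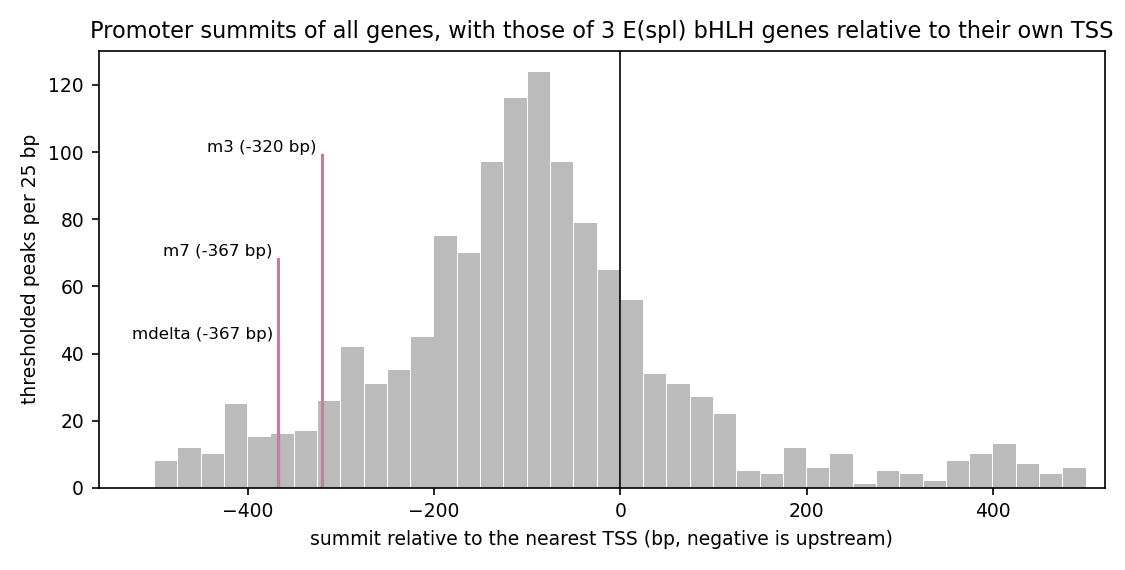
Number of thresholded peaks per 25 bp (y axis) by position of the summit relative to the nearest TSS of any gene (x axis, bp), with lines at the summits of E(spl)mdelta-HLH, E(spl)m3-HLH and E(spl)m7-HLH relative to their own TSS; line heights have no meaning. The lines stand at -367, -320 and -367 bp, left of the median of the bars at -102 bp. The bars count the E(spl)mdelta-HLH summit at -258 bp because the TSS of CG43116 is nearer, so its line and the bars are not on the same measure.

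Within 500 bp upstream, the Su(H) cores searched for lay at the promoters without a thresholded CG3838 peak. Other forms of the Su(H) site were not searched. In the 500 bp upstream of the TSS, a core (GTGGGAA or GTGAGAA, either strand) was found at E(spl)mgamma-HLH, E(spl)mbeta-HLH, E(spl)m5-HLH and E(spl)m8-HLH, which are the 4 genes without a thresholded promoter peak, and at none of the 3 with one. Over all 13968 promoters 10.2% had one, with 10.8% of those with a thresholded peak and 10.1% of those without, so over the genome genes with and without a peak hold cores about equally often. E(spl)mgamma-HLH had cores at -487, -293 and -269 bp, E(spl)mbeta-HLH at -292 bp, E(spl)m5-HLH at -309 and -146 bp, and E(spl)m8-HLH at -223 and -199 bp. Over 1000 bp the split is less clean: E(spl)mdelta-HLH gains a core at -774 bp and E(spl)m7-HLH 3 cores, the nearest at -644 bp, which leaves E(spl)m3-HLH as the gene with none. In all, 6 of the 7 had a core within 1000 bp, beside 19.4% of 13967 promoters, and 4 of the 7 had 2 or more, beside 2.05%. No core lay in the 201 bases around any of the 7 summits of the complex, which is near the background, since 4.38% of all summit windows had one.

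E boxes and N boxes, words bound by bHLH proteins, were found upstream of several of the genes. The E box CACGTG was present upstream of E(spl)mdelta-HLH, at -181 bp, and E(spl)m7-HLH, at -44 bp (5.74% of all promoters), and the E box CAGCTG upstream of E(spl)mgamma-HLH and E(spl)m8-HLH (22.2%). The N box CACNAG was found upstream of 4 of the 7 genes, E(spl)mdelta-HLH, E(spl)mbeta-HLH, E(spl)m7-HLH and E(spl)m8-HLH (43.3%). Of the 7 summit windows, 0 held either E box and 1, the intergenic one, held an N box. Over all 2239 summit windows 2.28% held CACGTG, 9.07% CAGCTG and 20.7% an N box, so the counts in 7 windows are near the background. GAGAG, bound by GAGA factor, was upstream of 5 of the 7 genes (41.0% of promoters), and the core of the DNA replication-related element, TATCGATA, was upstream of 0 (10.2%) and in 0 of the 7 summit windows (3.89% of all summit windows). Both strands were searched, and a lack of a match says only that these letters are not in the window.

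A TATA word close to the TSS was common to most of the 7 genes. TATAAA stood on the gene's strand between -45 and -20 bp at 5 of the 7 genes, E(spl)mbeta-HLH, E(spl)m3-HLH, E(spl)m5-HLH, E(spl)m7-HLH and E(spl)m8-HLH, beside 8.08% of all promoters. This word was thus present with and without a promoter peak. Upstream, words of 12 bases were shared only between E(spl)mdelta-HLH and E(spl)m7-HLH, which had 1 on the same strand, and between E(spl)mgamma-HLH and E(spl)mbeta-HLH, which had 4 on opposite strands.

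Base composition separated the genes with a thresholded promoter peak from those without. The share of G and C in the 500 bp upstream was 38.8% at E(spl)mdelta-HLH, 41.8% at E(spl)m3-HLH and 39.6% at E(spl)m7-HLH. It was 55.8% at E(spl)mgamma-HLH, 55.8% at E(spl)mbeta-HLH, 47% at E(spl)m5-HLH and 50.8% at E(spl)m8-HLH. The ranges did not overlap, although over the genome the median was 38.2% for genes with a thresholded promoter peak (quartiles 34.4% and 42.2%) and 38.4% for genes without one (quartiles 33.6% and 43.8%). The 3 genes with a peak thus lie near the middle of all promoters. The other 4 lie above the upper quartile, with E(spl)mgamma-HLH and E(spl)mbeta-HLH at or above 99.2% of promoters. The part of GC in the difference was not tested.

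**Figure D5:**
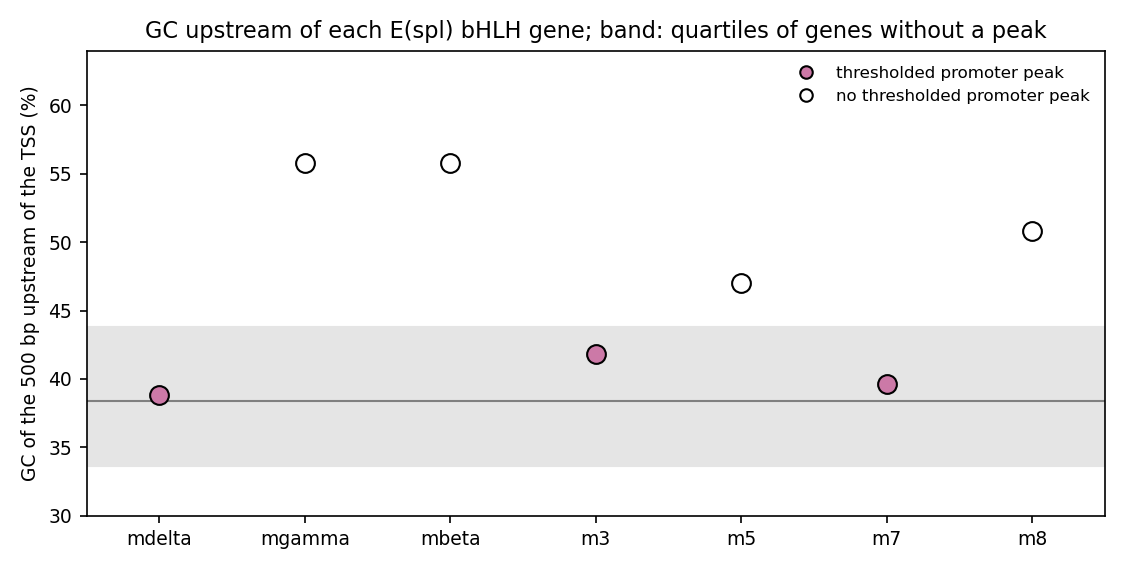
Share of G and C in the 500 bp upstream of the TSS (y axis, %) of each E(spl) bHLH gene (x axis, in genomic order); filled points have a thresholded promoter peak and open points have none, and the line and band are the median and quartiles of protein-coding genes without one. The 3 filled points lie between 38.8% and 41.8%, inside the band, and the 4 open points between 47% and 55.8%, above it.

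At the summits the 3 promoters with a peak were poorer still in G and C. The 201-base window printed above for E(spl)mdelta-HLH has 21.9% G and C, and 10 of the 2239 summit windows of the genome (0.447%) are as low or lower. The windows of E(spl)m7-HLH (25.4%, with 3.04% as low or lower) and E(spl)m3-HLH (29.4%, with 14.6%) follow, and the median of all summit windows is 35.8%. TATAAA, on either strand, was in the windows of E(spl)mdelta-HLH and E(spl)m3-HLH, as in 34.4% of all summit windows.

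Among relatives and partners of these genes outside the complex, promoter peaks were found at genes of the Notch pathway. No difference between lists was tested, and in the short lists below a count of 0 is near the 11.6% of all genes. Of 6 other genes of the same bHLH class (hry, dpn, Hey, Sidpn, cwo and Hesr), 0 had a thresholded promoter peak, and Hey and cwo had weak pooled regions of 40.2 and 41.28. Of 9 proneural genes and partners, which the E(spl) proteins repress or bind, 0 had one, with the highest pooled signal, 79.46, at da, the common partner of proneural proteins. The 3 Bearded-family genes elsewhere (Brd, Tom and Ocho) had neither a thresholded nor a pooled region there. Of 18 genes of the Notch pathway and its co-repressors 5 had a thresholded promoter peak (27.8%, beside the 11.6% of all genes). Among the strongest 2239 regions, 5 had a promoter region in replicate 1 (10.8% of all genes), 4 in replicate 2 (10.8%) and 4 in replicate 3 (12.3%). The 4 strongest were numb (203.6), an inhibitor of Notch, aph-1 (163.3), a subunit of the protease that frees the Notch intracellular domain, bib (145.4), a channel-like membrane protein, and mam (134.3), a co-activator that joins Su(H). These signals overlap the range of the 3 E(spl) genes with a promoter peak, from 130.9 to 169.7. The gene Su(H), whose product carries the Notch signal to the E(spl) promoters, had a pooled region of 74.49 and no thresholded one.

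The genes whose strongest promoter region had ranks most like those of an E(spl) gene with a promoter peak in all 3 replicate lists were sought among 3874 genes with a region in each. Likeness was the largest difference of log10 rank over the 3 lists, smaller being more alike. For E(spl)mdelta-HLH they were CG4080 (0.0454), TP53INP (0.0565) and CG44569 (0.067), with thresholded signals of 113.1, 125.6 and 124.4. For E(spl)m3-HLH they were Rpn3 and l(2)37Bb, which share the same regions (0.0472, signal 194.9), and CG14882 (0.057, signal 191.9). E(spl)m7-HLH had no region in its window in replicate 1 and could not be matched in this way. The summits of these genes lay at -22, -182, -218, 9, -187 and -25 bp in the order named. All were closer to the TSS than those of the E(spl) genes they match in rank, as most promoter summits are. Over all 1272, measured from the nearest TSS of any gene, the median was -102 bp and 10.1% lay 300 bp or more upstream.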

How the data were processed

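The 3 replicates form 1 group, by their labelled replicate numbers. According to the deposited README files, the authors called regions on the alignments of each replicate and of the pooled replicates against a control, and thresholded the latter by the irreproducible discovery rate. No aligner or caller is named there or in the labels. Each region has a signal value as deposited by the authors, on an unstated scale, and values were compared within 1 list only. The 5 dm6 lists were used, and the dm3 lists were not.

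Genes and TSSs are from Ensembl release 115, with transposable elements left out, and sequences are from the RefSeq Release 6 assembly, whose arm lengths match (0 regions beyond a chromosome end). Replicate lists were cut to their strongest 2239 regions, and an overlap of at least 1 bp counted as found. Shares over all 13968 protein-coding genes, without their own test, are the background. For other gene lists, 4 older symbols were matched through synonyms. Named were the 7 genes, the other genes of the locus and its borders, up to 4 genes per list by signal, and 3 genes of like rank per gene with a promoter peak. Counts were written with Python 3.11.15 and numpy 2.4.6, after tests on simulated data. The genes, lists and rules were chosen with earlier results of these data known.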

Additional observations from a re-analysis of the deposited data

How the results depend on the processing

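The 3 genes with a promoter peak became 0 with a window of 250 bp, because all 3 summits lie farther upstream. They became 1 among the strongest 1000 peaks and 0 among the strongest 500, their ranks being 1399, 835 and 1412. A window of 1000 bp, overlap of the interval in place of the summit, and the outermost 5′ end alone gave 3, and pooled regions of any strength gave 4. Requiring both replicates that remain when each is left out in turn gave 2 to 3. The 7 peaks of the complex became 3 without the extension of 2 kb, 3 among the strongest 1000 and 1 among the strongest 500, stayed at 7 with an extension of 5 kb, and were 4 to 6 with each replicate left out, 4 being the value without replicate 2. Of these peaks the 4 found in all 3 replicates became 1 when each replicate list was held to its strongest 1119 regions and 5 with the strongest 5000, and 4 to 6 were found in both remaining replicates. No paired analysis was possible because there is 1 group. No value was tested against its replicate spread, and depth is unknown, so a missing weak region does not show a lack of binding.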
